A study of Mus musculus with 6 samples.

Results

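The translation initiation and elongation factors are the proteins, other than the ribosome and the tRNAs, that load a ribosome on an mRNA, find the start codon and lengthen the peptide chain. Their genes were chosen by symbol: every gene listed as Eif or Eef followed by a digit, without the Eif2ak kinases, which phosphorylate an initiation factor. This gave 59 of 16383 listed genes, and 56 of the 59 passed the filter on low values, which asked for 1 FPKM or more in 2 or more of the 6 libraries. The 3 that did not pass were Eef1a2, Eif4e1b and Eif2s3y, none of which exceeded 0.22 FPKM in any library. Levels are in FPKM, which corrects the fragments of a gene for transcript length and library total, so each is relative to the other mRNAs of its library and not an amount per cell.

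The RNA came from mature mouse CD8 thymocytes, which had been sorted for CD8 and a high level of TCRβ, and for lack of CD69 and CD24. The genotypes, with 2 libraries each, were DKO (Tcf1-/-Lef1-/-, lacking both transcription factors), Tcf1 KO (Tcf1-/-) and WT (wild type, the control). The design text names CD4-Cre as the deleter. CD4-Cre acts from the CD4+CD8+ stage of thymocytes onward, so earlier thymocyte stages had developed with the factors. The labels give no age, sex or strain, and do not say whether the controls carried Cre. Nor do they say whether replicate libraries came from different mice. A p-value here sets a difference against the spread between libraries of a genotype. That spread was pooled over the genotypes and drawn toward that of genes of similar level, and it may be technical.

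In initiation, the eIF2 complex brings the initiator tRNA to the small ribosomal subunit, eIF3 holds this assembly together, and the eIF4 proteins bind the mRNA cap and unwind its leader so that the subunit can scan for a start codon. In elongation, eEF1A delivers the aminoacyl-tRNAs, the eEF1B proteins recharge it with GTP, and eEF2 moves the ribosome along. Many elongation factor mRNAs, with those of ribosomal proteins, belong to the TOP mRNAs, which begin with an oligopyrimidine tract and are translated under the control of mTOR. Tcf1 and Lef1 are related HMG-box factors of T cell development.

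Lef1, the gene deleted in DKO alone, stood at 130.9 and 130.2 FPKM in DKO libraries, 309 and 312 in Tcf1 KO and 316 and 282 in WT (DKO against WT -1.19, adjusted p = 0.000157). A gene-level FPKM does not tell which exons the remaining fragments cover. Tcf7, which encodes Tcf1, was not analysed here, since the table used ends at Pcsk5 in alphabetical order. The spacing of low values corresponded to about 51000000 to 61750000 fragments per library, an approximate figure that assumes a fragment length of 200 bases. At these depths 65.4% to 75.9% of the values used lay within 0.25 of a whole fragment. Each depth was picked to make that share largest, and evenly spread values would reach much of it. The share is therefore no check of the figure. A list of 8 T cell genes, among them Cd8a and Cd8b1, summed to 4415 and 4617 FPKM in DKO, 4450 and 4608 in Tcf1 KO and 3888 and 4188 in WT, with 2 genes higher and 2 lower in DKO against WT. Cd8a stood at 516 and 535 FPKM in DKO, 646 and 656 in Tcf1 KO and 561 and 599.9 in WT. Cd4, a gene that mature CD8 cells turn off, averaged 96.3 ± 46.1 FPKM in DKO, 10.7 ± 6.22 in Tcf1 KO and 1.03 ± 0.537 in WT (SD, n = 2 each). Cd69 and Cd24a encode the markers that the cells were sorted to lack. Cd69 stood at 27.2 and 27.1 FPKM in DKO, 33.2 and 31.6 in Tcf1 KO and 39.4 and 36.0 in WT. Its fall in DKO against WT passed the limma test (-0.46, adjusted p = 0.0023). Cd24a stood at 5.76 and 2.79 in DKO, 4.32 and 2.74 in Tcf1 KO and 3.23 and 2.61 in WT. That gene did not pass in DKO against WT (0.37, adjusted p = 0.352). The B cell list summed to 22.7 and 25.9 FPKM in DKO, 14.9 and 16.9 in Tcf1 KO and 19.8 and 20.5 in WT, nearly all of it Cd79b, with Ms4a1 at 0.01 or less. The stromal list summed to 3.75 and 4.39 FPKM in DKO, 2.66 and 2.10 in Tcf1 KO and 2.04 and 2.25 in WT, with Krt5 and Krt8 at 0.04 or less. Both lists were highest in the DKO libraries, and their part in the factors' changes was not tested. The myeloid list summed to between 4.02 and 5.44 and the erythroid list to between 0.32 and 1.93 in the 6 libraries.

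Most of the tested translation factors were lower in DKO cells than in WT cells, above all those of elongation, eIF2 and eIF3. In Tcf1 KO cells 1 of them passed the test against WT. Of the 56 tested factors, 35 fell in DKO against WT and 3 rose (limma on log2(FPKM + 1), adjusted p under 0.05 over 6761 genes). This was 67.9% of the factors called, 62.5% as lower, against 49.5% of all tested genes, 27.8% as lower and 21.7% as higher. The balance over all genes depended on the scaling, in that median scaling gave 1781 rises and 1617 falls and quantile scaling 1817 rises and 1626 falls. Of the factors, 29 fell and 4 rose with the median and 34 fell and 4 rose with the quantile method. The median log2 change of the factors was -0.28 and that of all tested genes -0.03, and none of the called factors changed by 2-fold. In 50 of the 56 the DKO and WT libraries did not overlap, as was so for 77.4% of all tested genes. The 35 that fell were spread over elongation factors (7 of 9 tested), eIF2 and related proteins (5 of 5), eIF2B (2 of 5), eIF3 (12 of 14), scanning factors (3 of 7), the eIF4F group (5 of 11) and Eif6.

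**Figure D1:**
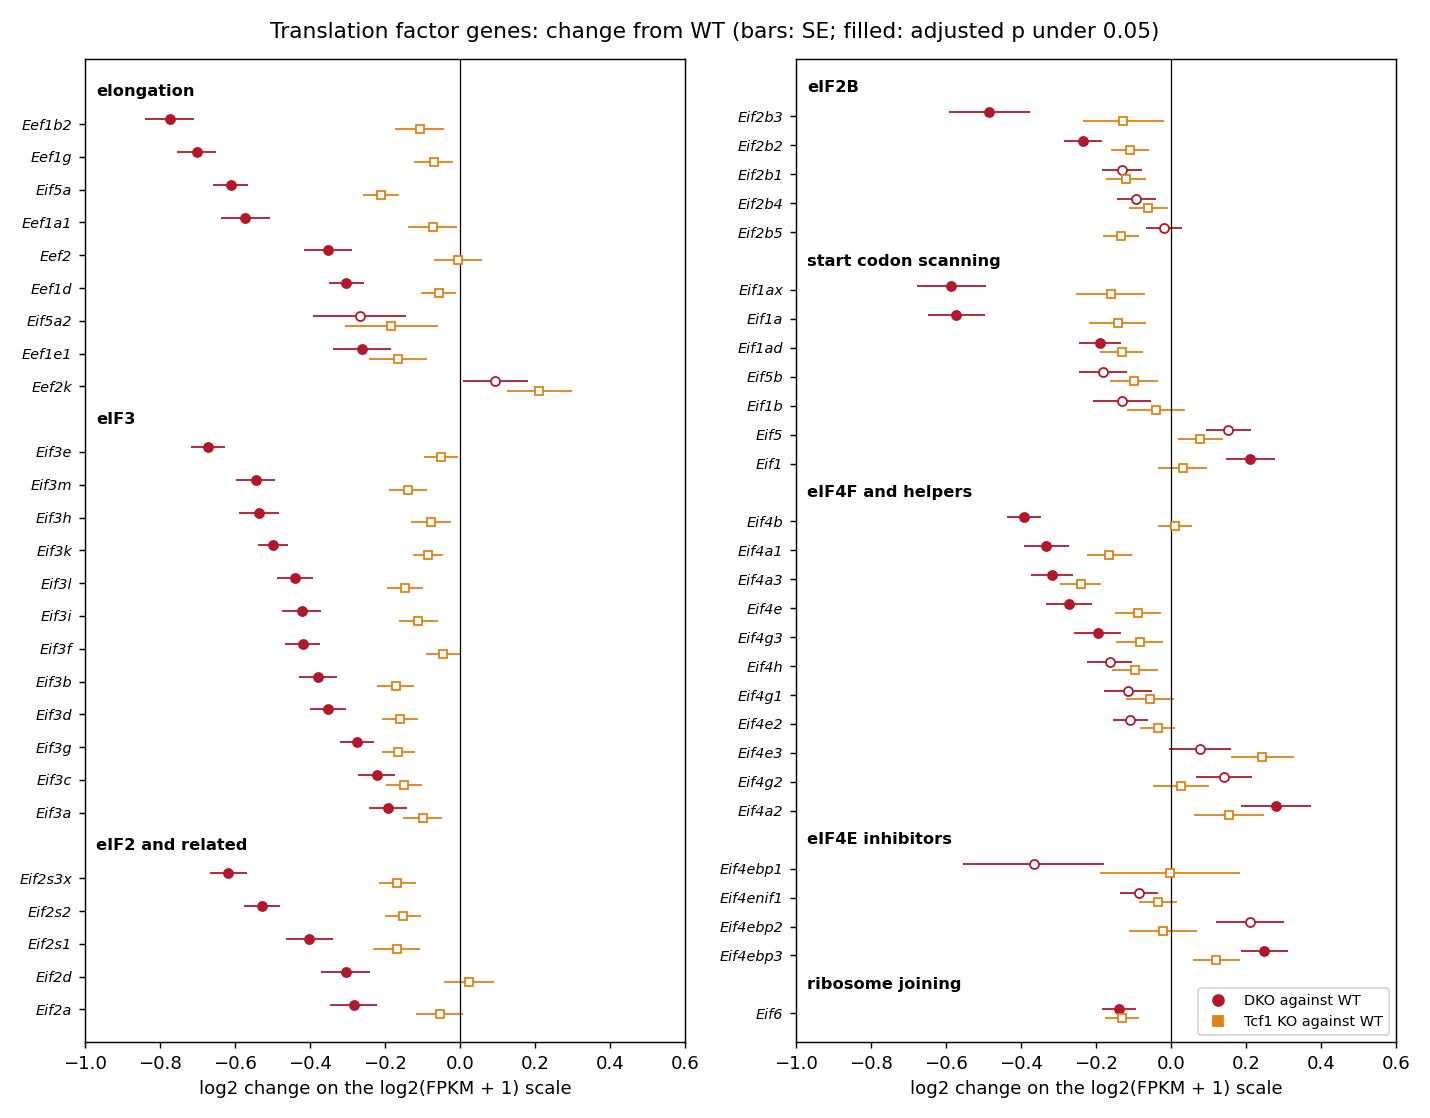
Log2 change from WT of the tested factors other than Eif3j1 and Eif3j2 on the log2(FPKM + 1) scale, grouped by role, for DKO and for Tcf1 KO libraries (n = 2 per genotype). Points are fitted changes, bars are standard errors and filled points have an adjusted p under 0.05: 38 in DKO, 35 of them to the left of 0, and 0 in Tcf1 KO.

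In summed level the factors took up 3.76% and 3.95% of the FPKM over all listed genes in the DKO libraries, against 4.91% and 4.89% in Tcf1 KO and 5.06% and 5.10% in WT. The sum itself was 8475 and 8836 FPKM in DKO, 11133 and 11096 in Tcf1 KO and 11612 and 11749 in WT. Eef1a1 made up 39.7% to 44.8% of it in the 6 libraries. Without Eef1a1 the sum was 5114 and 5185 FPKM in DKO, 6201 and 6123 in Tcf1 KO and 6440 and 6502 in WT, so the DKO libraries were below the others with and without that gene. In bulk RNA, fewer cells of a type and less RNA per cell cannot be told apart.

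Among the elongation factors, Eef1a1, which delivers aminoacyl-tRNAs to the ribosome, had the highest level of all factors in every library. It stood at 3361 and 3651 FPKM in DKO, 4932 and 4973 in Tcf1 KO and 5172 and 5247 in WT. Both DKO libraries lay below all others, and the DKO mean was 32.7% below the WT mean (log2 change -0.57 ± 0.07, SE, adjusted p = 0.00124). Eef1b2, an exchange factor that reloads eEF1A with GTP, had the largest fall among the factors that passed the test in DKO against WT. Its levels were 193 and 216 FPKM in DKO, 325 and 323 in Tcf1 KO and 342 and 357 in WT, with no overlap between DKO and the rest (-0.77 ± 0.06, adjusted p = 0.000457, a mean 41.6% lower). Eef1g, the scaffold subunit of the same exchange complex, stood at 268 and 287 FPKM in DKO, 428 and 432 in Tcf1 KO and 446 and 457 in WT (DKO against WT -0.70 ± 0.05, adjusted p = 0.000321). Eef1d, a further exchange subunit, had a smaller fitted change, at 72.4 and 74.3 FPKM in DKO, 89.2 and 85.1 in Tcf1 KO and 89.5 and 92.0 in WT (-0.30, adjusted p = 0.00365). All 3 genes of the exchange complex had DKO libraries below every other library.

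Eif5a, which carries the modified residue hypusine and helps ribosomes through difficult peptide bonds, was placed with the elongation factors. It stood at 299 and 306 FPKM in DKO, 401 and 398 in Tcf1 KO and 451 and 475 in WT (DKO against WT -0.61 ± 0.05, adjusted p = 0.000347). Here the 3 genotypes were apart from one another, with Tcf1 KO between the others. Eef2, the translocase, stood at 848 and 939.8 FPKM in DKO, 1135 and 1134 in Tcf1 KO and 1158 and 1120.2 in WT (-0.35 ± 0.06, adjusted p = 0.00658). Its Tcf1 KO and WT libraries overlapped. Eef1e1, a protein of the tRNA synthetase complex named for its likeness to the exchange factors, also fell (-0.26, adjusted p = 0.0351). Eef2k, the kinase that inactivates eEF2, did not pass the test, at 5.16 and 4.85 FPKM in DKO, 5.33 and 5.70 in Tcf1 KO and 4.86 and 4.40 in WT (DKO against WT 0.09, adjusted p = 0.402). Eif5a2, a paralog of Eif5a, was at 1.19 FPKM or less in every library. Without WT replicate 1 the call of Eef2 was lost (adjusted p = 0.052). That of Eef1a1 held whichever library was left out and was lost where the filter on low values was dropped (0.136). The call of Eef1e1 ended without DKO replicate 1 (0.106), DKO replicate 2 (0.0705), Tcf1 KO replicate 2 (0.0501) or WT replicate 2 (0.181), and under median scaling (0.0525).

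**Figure D2:**
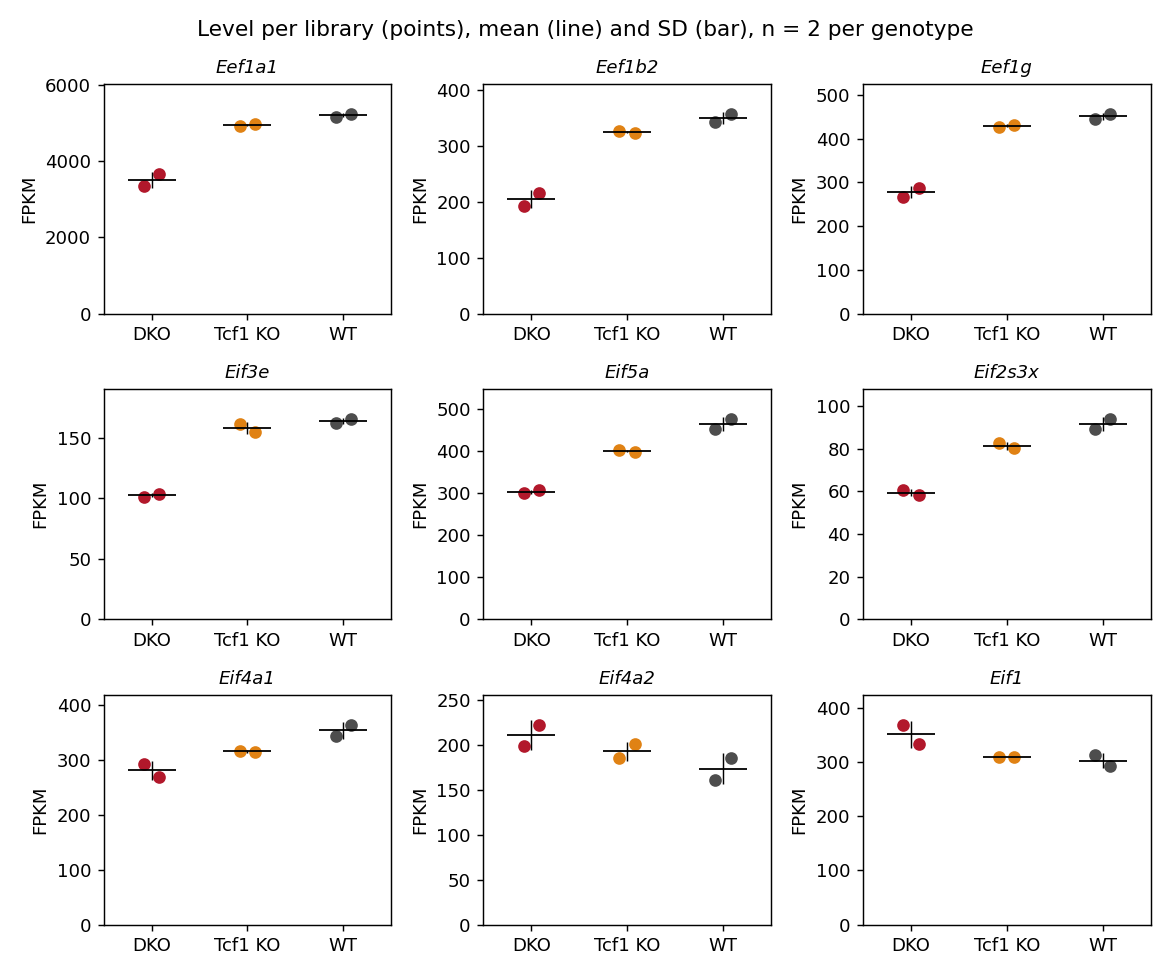
FPKM of selected factors in each library (points), with the mean (line) and SD (bar) of the 2 libraries of DKO, Tcf1 KO and WT, on linear axes that start at 0. The panels from Eef1a1 to Eif4a1 show both DKO points below the Tcf1 KO and WT points, while Eif4a2 and Eif1 have higher DKO means than WT means.

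Most mRNAs of the eIF3 complex, the scaffold on which the initiation factors assemble, were lower in DKO than in WT. Apart from the loosely bound subunit j, described below, all 12 tested subunits fell in DKO against WT, by log2 changes of -0.67 to -0.19. The share of all tested genes that fell was 27.8%. Among the subunits the fall was largest for Eif3e, at 101 and 104 FPKM in DKO, 162 and 155 in Tcf1 KO and 162 and 166 in WT (-0.67 ± 0.04, adjusted p = 0.000253). Eif3m followed, with 69.8 and 74.6 FPKM in DKO, 97.7 and 94.1 in Tcf1 KO and 106 and 105 in WT (-0.55 ± 0.05, adjusted p = 0.000654). Eif3h, the most abundant subunit by mean FPKM, stood at 189 and 192 in DKO, 273 and 251 in Tcf1 KO and 274 and 279 in WT (-0.54 ± 0.05, adjusted p = 0.0008). All 3 belong to the octamer of PCI and MPN domain proteins that is known from human eIF3.

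Of the same octamer, Eif3k was at 125 and 125 FPKM in DKO, 166 and 167 in Tcf1 KO and 179 and 175 in WT (-0.50 ± 0.04, adjusted p = 0.0004). Eif3f was at 159 and 163 FPKM in DKO, 214 and 204 in Tcf1 KO and 213 and 218 in WT (-0.42, adjusted p = 0.00115), and Eif3l also fell (-0.44, adjusted p = 0.00108). Eif3a and Eif3c, the large core subunits, had the smallest falls of the octamer. Eif3a stood at 77.8 and 74.9 FPKM in DKO, 83.2 and 79.6 in Tcf1 KO and 89.5 and 85.2 in WT (-0.19, adjusted p = 0.025), and Eif3c at 83.1 and 82.5 in DKO, 89.1 and 85.4 in Tcf1 KO and 94.4 and 99.2 in WT (-0.22, adjusted p = 0.0121). The remaining subunits, Eif3b, Eif3i and Eif3g of the part that reaches toward the mRNA entry site, and Eif3d, which can bind mRNA caps in human cells, fell by log2 changes of -0.42 to -0.28. Eif3c lost its call without WT replicate 2 (0.0858). Eif3a lost it without DKO replicate 2 (0.0793), WT replicate 1 (0.139) or WT replicate 2 (0.0635), and under median scaling (0.121).

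All 3 genes of eIF2, the GTPase that carries the initiator tRNA, fell in DKO against WT, where 27.8% of all tested genes fell. Eif2s3x, the X-linked gene of the GTP-binding subunit, stood at 60.4 and 58.1 FPKM in DKO, 82.6 and 80.1 in Tcf1 KO and 89.2 and 93.8 in WT, apart in all 3 genotypes (-0.62 ± 0.05, adjusted p = 0.000405). Its Y-linked partner Eif2s3y was at 0.01 FPKM in 1 DKO library and at 0 in the other 5. Eif2s2, the β subunit, was at 27.3 and 26.7 FPKM in DKO, 35.9 and 34.8 in Tcf1 KO and 38.9 and 39.9 in WT (-0.53 ± 0.05, adjusted p = 0.000583). Eif2s1, the subunit that the stress kinases phosphorylate, was at 22.01 and 19.96 FPKM in DKO, 25.04 and 24.57 in Tcf1 KO and 27.9 and 28.2 in WT (-0.40, adjusted p = 0.00364). Eif2a and Eif2d, which can bring tRNA to the ribosome without eIF2, also fell (-0.28, adjusted p = 0.0136, and -0.31, adjusted p = 0.0119). Their calls were the less stable of the group. The call of Eif2a ended without WT replicate 2 (0.0919), and that of Eif2d without WT replicate 1 (0.0775) or WT replicate 2 (0.0586).

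The complex eIF2B recharges eIF2 with GTP. In DKO against WT, 2 of its 5 subunits fell, Eif2b2 (-0.23, adjusted p = 0.0116) and Eif2b3 (-0.48 ± 0.11, adjusted p = 0.0134), and 3 did not pass the test. Of all tested genes 27.8% fell in that comparison, and 5 subunits are too few to set the complex apart from that share. The most abundant, Eif2b2, stood at 29.5 and 28.4 FPKM in DKO, 32.3 and 31.1 in Tcf1 KO and 34.3 and 34.2 in WT. The catalytic subunit Eif2b5 was at 24.7 and 24.8 FPKM in DKO, 22.8 and 22.8 in Tcf1 KO and 24.8 and 25.4 in WT, so DKO and WT differed by less than the spread of the WT libraries (-0.02, adjusted p = 0.772). Eif2b1 and Eif2b4 changed by -0.13 and -0.09 without passing. Neither call held in every subset of libraries. Eif2b2 was lost without WT replicate 1 (0.0712), without WT replicate 2 (0.0701) and under median scaling (0.0503), and Eif2b3 without WT replicate 1 (0.052) or WT replicate 2 (0.0912).

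The factors of scanning and start codon choice moved in different directions. Eif1a and Eif1ax encode near-identical proteins, the forms of eIF1A, which keeps the scanning subunit open. Eif1ax stood at 41.4 and 35.8 FPKM in DKO, 53.2 and 50.9 in Tcf1 KO and 54.8 and 62.0 in WT (DKO against WT -0.59 ± 0.09, adjusted p = 0.00382). Eif1a stood at 11.2 and 10.8 in DKO, 14.8 and 15.5 in Tcf1 KO and 15.9 and 17.9 in WT (-0.57 ± 0.08, adjusted p = 0.00207). Their annotated transcripts shared no stretch of 50 bases. Eif1, whose protein guards against starting at the wrong codon, was higher in DKO, at 369 and 333 FPKM, against 309 and 309 in Tcf1 KO and 312 and 293 in WT (0.21 ± 0.06, adjusted p = 0.04). It was the most abundant factor of this group in every library. Eif5, the GTPase activator that acts at the start codon, stood at 90.3 and 89.4 FPKM in DKO, 85.2 and 85.3 in Tcf1 KO and 76.5 and 85.1 in WT and did not pass (0.15, adjusted p = 0.0826), except without WT replicate 2 (0.23, 0.044) and under median scaling (0.0327). Eif5b, which joins the ribosomal subunits, and Eif1b, a paralog of Eif1, did not pass. Eif1ad, a protein with an eIF1A-like domain, fell (-0.19, adjusted p = 0.0368). The rise of Eif1 ended without DKO replicate 1 (0.117), Tcf1 KO replicate 1 (0.0702), Tcf1 KO replicate 2 (0.0704), WT replicate 1 (0.0766) or WT replicate 2 (0.202), and under quantile scaling (0.0548). The call of Eif1ad ended without any 1 of the 6 libraries (0.0556 to 0.19) and under median (0.148) or quantile scaling (0.0604). Eif6, which keeps the large subunit from joining too early, fell by the smallest amount called (-0.14, adjusted p = 0.0476), a call that ended without any 1 of the 6 libraries (0.0747 to 0.211) and under median (0.195) or quantile scaling (0.0589).

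In the cap-binding group the helicase genes Eif4a1 and Eif4a2 went opposite ways in DKO. Eif4a1 stood at 293 and 268 FPKM in DKO, 317 and 314 in Tcf1 KO and 343 and 364 in WT (-0.33, adjusted p = 0.00656). Eif4a2 stood at 199 and 223 in DKO, 186 and 201 in Tcf1 KO and 161 and 186 in WT (0.28 ± 0.09, adjusted p = 0.0495). The ratio of Eif4a2 to Eif4a1 was 0.679 and 0.830 in DKO, 0.586 and 0.640 in Tcf1 KO and 0.470 and 0.511 in WT, without overlap between genotypes. Eif4a2 is the form associated with cells that do not divide and Eif4a1 the form of dividing cells, and their annotated transcripts shared no stretch of 50 bases. The fall of Eif4a1 ended without WT replicate 2 (0.0514). The rise of Eif4a2 ended without DKO replicate 2 (0.17), Tcf1 KO replicate 1 (0.0699), Tcf1 KO replicate 2 (0.0699) or WT replicate 1 (0.221), and with a pseudocount of 0.1 (0.0508).

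Eif4b, a cofactor of the helicase, fell to 111 and 116 FPKM in DKO, against 151 and 149 in Tcf1 KO and 149.9 and 147 in WT (DKO against WT -0.39, adjusted p = 0.00121). Tcf1 KO and WT libraries of Eif4b overlapped. Eif4e, the cap-binding protein, fell less (-0.27, adjusted p = 0.0144), and so did the scaffold Eif4g3 (-0.20, adjusted p = 0.0451). Eif4a3, a relative of the helicases that marks exon junctions, fell by -0.32 (adjusted p = 0.00567). The main scaffold Eif4g1 stood at 89.7 and 98.2 FPKM in DKO, 97.6 and 97.9 in Tcf1 KO and 97.8 and 105.7 in WT, with DKO and WT overlapping, and did not pass (-0.11, adjusted p = 0.184). Eif4g2, Eif4h, Eif4e2 and Eif4e3 did not pass in the reported fit either, and their results under the alternatives are not listed here. Eif4e was lost without DKO replicate 2 (0.05), WT replicate 1 (0.0813) or WT replicate 2 (0.0803). Eif4g3 was lost without DKO replicate 1 (0.125), Tcf1 KO replicate 1 (0.077), Tcf1 KO replicate 2 (0.077), WT replicate 1 (0.125) or WT replicate 2 (0.189), and under median scaling (0.0889).

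The inhibitors of eIF4E were grouped as Eif4enif1 and the Eif4ebp genes, whose proteins occupy its binding site for the scaffold until mTOR phosphorylates them. Of 4 tested, 1 rose and 0 fell in DKO against WT, where 21.7% of all tested genes rose and 27.8% fell. Eif4ebp3 stood at 11.9 and 11.9 FPKM in DKO, 11.1 and 10.4 in Tcf1 KO and 9.81 and 9.85 in WT, apart in all 3 genotypes (0.25 ± 0.06, adjusted p = 0.0213). Eif4ebp2, by far the most abundant of them, stood at 112 and 93.1 in DKO, 88.3 and 85.0 in Tcf1 KO and 90.3 and 85.6 in WT and did not pass (0.21 ± 0.09, adjusted p = 0.104), though it did without DKO replicate 2 (0.34, adjusted p = 0.01) and under quantile scaling (0.23, adjusted p = 0.0476). Eif4ebp1 stood at 8.17 and 5.58 in DKO, 9.60 and 8.43 in Tcf1 KO and 10.14 and 8 in WT, a difference within the spread of the DKO libraries (-0.37 ± 0.19, adjusted p = 0.154). Without DKO replicate 1 the change of Eif4ebp1 passed (-0.61, adjusted p = 0.0338). Eif4enif1, which carries eIF4E into the nucleus, changed by -0.09 (adjusted p = 0.209). The rise of Eif4ebp3 ended without DKO replicate 1 (0.0595), DKO replicate 2 (0.0548), WT replicate 1 (0.109) or WT replicate 2 (0.11).

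In Tcf1 KO against WT, 0 of the 56 factors rose and 1 fell in the limma fit, Eif3j2, where 2.09% of all tested genes passed, 0.754% as lower and 1.33% as higher. At an unadjusted p under 0.05 in that fit there were 2 higher and 15 lower. The share of all tested genes at this looser threshold was not counted. These numbers therefore cannot be set against the 2.09% above, and no excess can be read from them. The median change of the factors was -0.09 and that of all tested genes -0.01, and 46 of the 56 changes were negative, 82.1% against 51.9% of all tested genes. The changes were small: apart from Eif3j1 and Eif3j2 they lay between -0.24 and 0.24 on the log2 scale. Eef1a1 changed by -0.07 (adjusted p = 0.592), and Eif5a by -0.21 (adjusted p = 0.0817), neither of which passed. That so many factors passed in DKO and 1 in Tcf1 KO does not by itself show that the genotypes differ, and DKO was therefore set directly against Tcf1 KO.

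In DKO against Tcf1 KO, 25 factors fell and 1 rose, again Eif3j2. This was 46.4% of the factors called, 44.6% as lower, against 38.4% of all tested genes, 22.6% as lower and 15.9% as higher. Over all genes median scaling gave 1312 rises and 1271 falls and quantile scaling 1331 rises and 1302 falls, while 19 factors fell with the median and 24 with the quantile method. The median change was -0.17 for the factors and -0.03 for all tested genes. In 46 of the 56 the DKO and Tcf1 KO libraries did not overlap, as was so for 69.1% of all tested genes. The 25 were 6 of 9 elongation factors, 5 of 5 of eIF2 and related proteins, 10 of 14 eIF3 genes including Eif3j1, 2 scanning factors, Eif2b3 and Eif4b. The largest falls apart from Eif3j1 were those of Eef1b2 (-0.67, adjusted p = 0.00132), Eef1g (-0.63, adjusted p = 0.000805), Eif3e (-0.62, adjusted p = 0.000648) and Eef1a1 (-0.50, adjusted p = 0.00313). Eif4b changed by -0.40 (adjusted p = 0.00186) and Eif5a by -0.40 (adjusted p = 0.00221). Eif1, Eif4a2, Eif4a1 and the eIF4E inhibitors did not pass in this comparison. Without DKO replicate 1, Eif4a1 (0.0371) and Eif4ebp1 (0.0434) passed as lower, and without DKO replicate 2, Eif1 (0.0314) and Eif4ebp2 (0.0124) passed as higher. The 3 comparisons share libraries in pairs, so their values are given side by side and not as separate evidence.

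Of the 26 calls in DKO against Tcf1 KO, 15 held whichever library was left out. The other 11 ended without at least 1 library. Eef2 ended without Tcf1 KO replicate 1 (0.0507) or Tcf1 KO replicate 2 (0.05), Eef1d without Tcf1 KO replicate 1 (0.0664), Eif2d without Tcf1 KO replicate 1 (0.0705), Eif1a without Tcf1 KO replicate 2 (0.05), and Eif1ax without Tcf1 KO replicate 1 (0.0821) or replicate 2 (0.0591). Eif2a ended without any 1 of the 6 libraries (0.0533 to 0.152), Eif2b3 and Eif3b without any but DKO replicate 2 (0.0588 to 0.168), and Eif2s1 without any but DKO replicate 1 (0.0748 to 0.131). Eif3d ended without DKO replicate 1 (0.0767), Tcf1 KO replicate 1 (0.103) or Tcf1 KO replicate 2 (0.105). Under median scaling Eif2a, Eif2b3, Eif2s1, Eif3b and Eif3d did not pass (0.0515 to 0.0934). The call of Eif3j1 is described with its copy below. In DKO against WT, 22 of the 38 calls held whichever library was left out, and all 22 were falls. Dropping the filter on low values ended the calls of Eef1a1, Eef1e1, Eef2, Eif1, Eif4a2 and Eif4g3 there (0.0522 to 0.136), and of Eef1a1, Eef2, Eif2a, Eif2b3 and Eif3j1 in DKO against Tcf1 KO (0.052 to 0.211). Fitting without the variance trend ended those of Eif1, Eif1ad, Eif3a, Eif4a2, Eif4g3 and Eif6 in DKO against WT (0.0521 to 0.0949), and of Eif2a, Eif3b, Eif3d and Eif3j1 in DKO against Tcf1 KO (0.0503 to 0.0646).

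**Figure D3:**
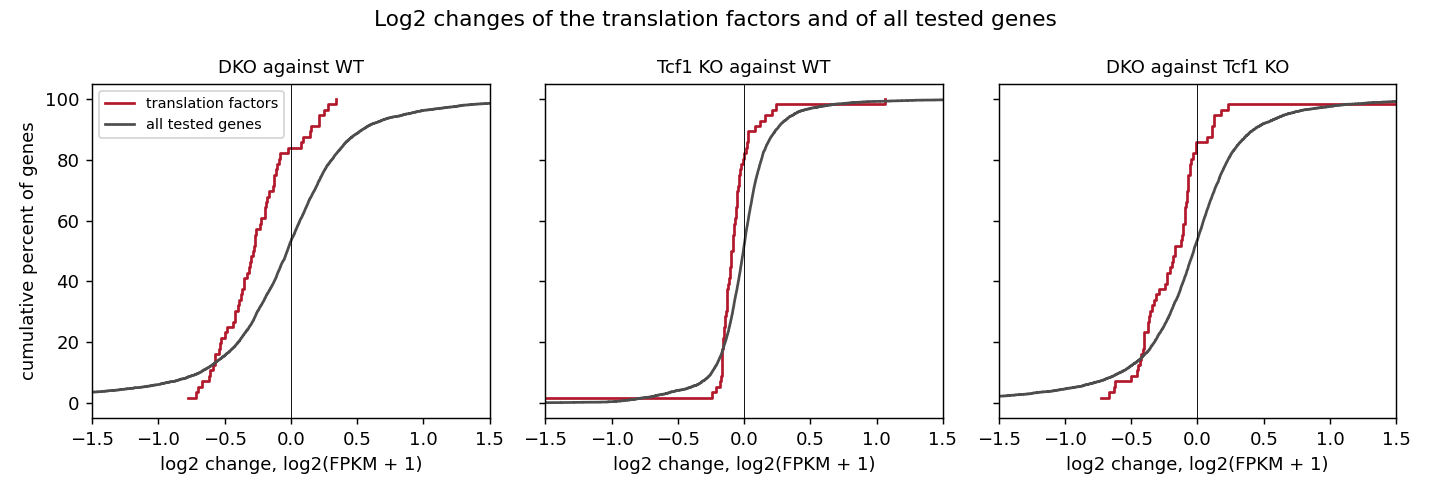
Cumulative percent of genes (vertical axis) against the log2 change on the log2(FPKM + 1) scale (horizontal axis) for the 56 tested factors and all 6761 tested genes in each comparison. The median of the factors lies to the left of that of all genes. The medians are -0.28 and -0.03 in DKO against WT and -0.17 and -0.03 in DKO against Tcf1 KO. In Tcf1 KO against WT they are -0.09 and -0.01. The curves cross in the lower tail of DKO against WT. No factor lies below -0.77 there, while other tested genes do, such as Myc at -1.29.

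The pair Eif3j1 and Eif3j2 was the exception to the pattern, and its values need the pair's sequence to be read. Both encode subunit j of eIF3, which sits in the mRNA channel of the small subunit and leaves it once the start codon is found. Of the 50-base stretches of the annotated Eif3j2 transcripts, 90.8% also occurred in those of Eif3j1, and 39.4% the other way round, so the split of reads between the copies is uncertain. Eif3j2 stood at 11.2 and 9.04 FPKM in DKO, 0.39 and 0.66 in Tcf1 KO and 22.1 and 13.3 in WT. Eif3j1 stood at 17.4 and 17.5 FPKM in DKO, 30.7 and 28.3 in Tcf1 KO and 10.3 and 17.8 in WT. Within WT the library with more Eif3j2 had less Eif3j1.

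Taken each for itself, Eif3j2 fell in Tcf1 KO against WT (-3.58 ± 0.24, adjusted p = 0.00479) and was higher in DKO than in Tcf1 KO (2.87 ± 0.24, adjusted p = 0.000936). Against WT, DKO did not pass for Eif3j2 (-0.72 ± 0.24, adjusted p = 0.0547). The fall in Tcf1 KO ended without Tcf1 KO replicate 2 (-3.71, adjusted p = 0.0503). Eif3j1 passed in DKO against Tcf1 KO (-0.73 ± 0.22, adjusted p = 0.0496), a call lost without DKO replicate 1 (0.127), DKO replicate 2 (0.12), Tcf1 KO replicate 1 (0.175) or Tcf1 KO replicate 2 (0.127), and with a pseudocount of 0.1 (0.0551). It did not pass in Tcf1 KO against WT (1.06 ± 0.22, adjusted p = 0.0755) or DKO against WT (0.34 ± 0.22, adjusted p = 0.253). These results changed with the WT library left out. Without WT replicate 2, Eif3j1 passed in DKO against WT (0.70, adjusted p = 0.00749) and in Tcf1 KO against WT (1.43, adjusted p = 0.0195), and so did Eif3j2 in DKO against WT (-1.06, adjusted p = 0.0179). Without WT replicate 1 the change of Eif3j1 in DKO against WT was -0.03 (adjusted p = 0.839).

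When the values of both copies were added, the pair passed the test in DKO against WT, but not in Tcf1 KO against WT or in DKO against Tcf1 KO. The sum was 28.6 and 26.5 FPKM in DKO, 31.1 and 29.0 in Tcf1 KO and 32.5 and 31.1 in WT. As 1 gene the pair changed by -0.08 ± 0.06 in Tcf1 KO against WT (adjusted p = 0.548), by -0.12 ± 0.06 in DKO against Tcf1 KO (adjusted p = 0.197) and by -0.20 ± 0.06 in DKO against WT (adjusted p = 0.0467). The share of Eif3j2 in the sum was 39.2% and 34.1% in DKO, 1.26% and 2.28% in Tcf1 KO and 68.2% and 42.8% in WT. The Tcf1 KO libraries were thus apart in the split between the copies, and both DKO sums were below the sums of the other 4 libraries.

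**Figure D4:**
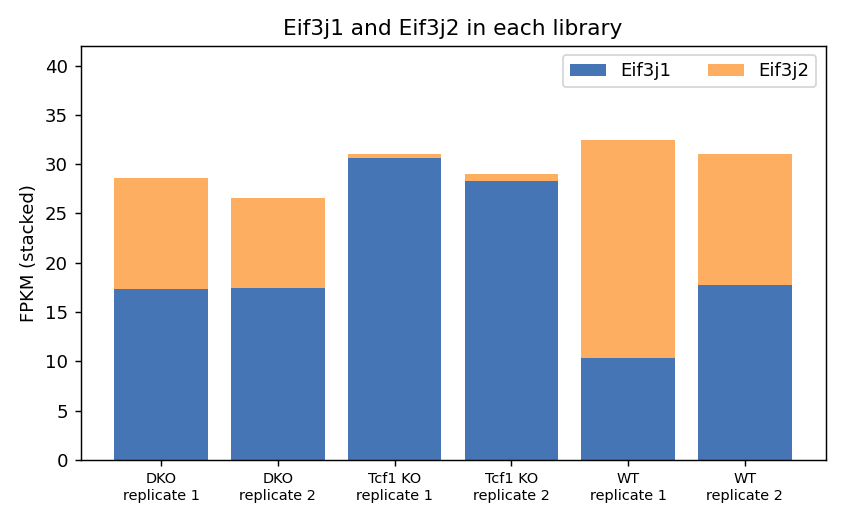
Stacked FPKM of Eif3j1 and Eif3j2 in each of the 6 libraries, from DKO through Tcf1 KO to WT. The total height runs from 26.5 to 32.5 FPKM, while the Eif3j2 part is 0.39 and 0.66 FPKM in Tcf1 KO and 9.04 to 22.1 FPKM in the other 4 libraries.

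The start regions of the factors are shown because TOP mRNAs are defined by the bases at the 5′ end of the transcript. RefSeq start windows of assembly GRCm38.p6 (a later assembly than the mm9 of the files) were used for 45 of the 59 factors, 43 of them tested. Each window runs from 10 bases before to 20 bases after an annotated start, read in the direction of the gene. Capitals mark each run of a C followed by at least 5 pyrimidines, searched on the strand of the gene. The first 3 genes below fell in DKO and have such a tract, Eif2b5 has one and did not pass the test, Eef1b2 and Eif3m fell and have none, and Eif4a2 and Eif1 rose.
Eif2s3x, chrX:94212632-94212661, minus strand: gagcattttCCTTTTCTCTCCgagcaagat
Eif3f, chr7:108934405-108934434, plus strand: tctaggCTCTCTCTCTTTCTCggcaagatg
Eif3l, chr15:79075213-79075242, plus strand: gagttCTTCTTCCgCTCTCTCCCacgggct
Eif2b5, chr16:20498807-20498836, plus strand: CTCTTTCTCTCCCTgcaactacaccttcgc
Eef1b2, chr1:63176821-63176850, plus strand: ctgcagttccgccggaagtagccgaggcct
Eif3m, chr2:105017008-105017037, minus strand: cggtcggcgtgtttctggatcggagcgtct
Eif4a2, chr16:23107458-23107487, plus strand: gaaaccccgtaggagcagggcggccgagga
Eif1, chr11:100319939-100319968, plus strand: ggcgtcacaggggcggctatataagtgaat

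Such a tract occurred in 25.4% of the factors' annotated starts searched and in 22.0% of all 32851 starts searched. Starts on chromosome 18 were left out of this and the following searches. By tested gene, 27.9% of the factors and 26.1% of all 4908 that could be matched had one. A tract was counted anywhere in the window, before or after the annotated start, as in Eif3k, Eif4b and Eef1e1, where it lies toward the window's end. Genes counted as having one are therefore not the same as TOP mRNAs. Of the 12 tested factors with a tract, 9 fell and 0 rose in DKO against WT, with a median change of -0.33. Of the 31 without one, 18 fell and 2 rose, with a median of -0.22. The annotated start may differ from the start used in these cells, and Eef1b2, which belongs to the TOP mRNAs, has no tract in its annotated window.

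A list of 9 factors known as TOP mRNAs was drawn up after the values had been seen, and is given as a description with no test. It holds Eef1a1, Eef1b2, Eef1d, Eef1g, Eef2, Eif3e, Eif3f, Eif3h and Eif4b. All 9 fell in DKO against WT with a median of -0.54, where 27.8% of all tested genes fell. All 9 also fell in DKO against Tcf1 KO with a median of -0.46, where 22.6% of all tested genes fell. In Tcf1 KO against WT 0 passed, at a median of -0.06. Since the genes were picked with their values known, these counts are no evidence of a trait of TOP mRNAs. The other 47 tested factors had 26 falls and 3 rises in DKO against WT and a median of -0.24. The summed level of the 9 was 5300.2 and 5742 FPKM in DKO, 7709 and 7705 in Tcf1 KO and 8006 and 8083 in WT. Of 6 TOP mRNAs that are not among the factors, Fau, Gnb2l1, Hnrnpa1, Nap1l1, Npm1 and Pabpc1, also chosen after values were seen, all 6 fell in DKO against WT, where the calls of Fau and Hnrnpa1 ended without at least 1 library (0.0504 to 0.177) and under median scaling (0.0622 and 0.0746), and that of Fau under quantile scaling (0.247). In DKO against Tcf1 KO 5 of the 6 fell, and Hnrnpa1 did not pass (-0.03, adjusted p = 0.782). There the calls of Fau and Pabpc1 ended without DKO replicate 1 (0.0594 and 0.0664), Tcf1 KO replicate 1 (0.0993 and 0.116), WT replicate 1 (0.062 and 0.0641) or WT replicate 2 (0.0623 and 0.0644), and that of Fau also without Tcf1 KO replicate 2 (0.0887). Median scaling ended the call of Pabpc1 there (0.0866) and quantile scaling that of Fau (0.207).

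The E-box CACGTG, the site of Myc and its relatives, was searched in the 300 bases from 250 before to 50 after each start, and since it is its own reverse complement it reads alike on both strands. It was found in 23.7% of the factors' starts and in 7.15% of all starts searched. Among tested genes it was in the promoter of 27.9% of the factors and of 12.1% of all 4908 that could be matched. Of the 12 tested factors with the letters, 7 fell and 0 rose in DKO against WT, and of the 31 without, 20 fell and 2 rose. Eef2k, Eif1b, Eif4g1, Eif4h and Eif5a2 hold the letters and did not pass the test. The stretches below show the letters in capitals with 10 bases on each side in 4 factors that fell.
Eef2, chr10:81176578-81176603, plus strand: ccggcgccgtCACGTGacgcacccaa
Eif4a1, chr11:69672597-69672622, minus strand: atcgcctccgCACGTGtaaaggtgct
Eif3k, chr7:28981917-28981942, minus strand: ggaaggaaatCACGTGgtagacaaaa
Eif5a, chr11:69921445-69921470, minus strand: ggggcggggtCACGTGtgtgcgtcat
They lie 43 bases before the start in Eef2, 189 in Eif4a1 and 44 in Eif3k. In Eif5a, which has several annotated starts, the stretch shown lies 74 bases before one of them. The letters CTTTGAA or CTTTGAT, a form of the site bound by Tcf1 and Lef1, were in 3.39% of the factors' starts and 8.65% of all starts searched, on either strand. By tested gene they were in the promoter of 4.65% of the factors and of 6.8% of all 4908 matched. Among tested factors Eif3g and Eif3l held them. A match is a run of letters and not a bound site.

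Myc mRNA moved in the same direction as the factors. It stood at 21.02 and 25.42 FPKM in DKO, 43.6 and 44.8 in Tcf1 KO and 52.8 and 64.2 in WT. The change was -1.29 in DKO against WT (adjusted p = 0.000653), -0.91 in DKO against Tcf1 KO (adjusted p = 0.00346) and -0.39 in Tcf1 KO against WT, which did not pass (adjusted p = 0.149). Markers of cycling cells moved too. All 7 fell in DKO against WT with a median of -4.14 and in DKO against Tcf1 KO, and 3 of 7, Mcm2, Mcm5 and Mcm6, fell in Tcf1 KO against WT. Their summed level was 93.2 and 94.2 FPKM in DKO, 253 and 195 in Tcf1 KO and 373 and 365 in WT, and none was at 0 in every library. Mki67 averaged 0.805 ± 0.177 FPKM in DKO, 22.5 ± 8.17 in Tcf1 KO and 44.7 ± 3.10 in WT (SD, n = 2 each). The part of the cycling cells, of Myc and of the Cd4 signal in the fall of the factors was not tested.

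Of 58 other listed genes of protein synthesis, 57 were tested. In DKO against WT 24 fell and 3 rose, with a median change of -0.16, where 27.8% of all tested genes fell and 21.7% rose. In Tcf1 KO against WT 0 passed in the limma fit, and in DKO against Tcf1 KO 17 fell and 5 rose, where 22.6% of all tested genes fell and 15.9% rose. Of 15 tRNA synthetase genes and their scaffolds 9 fell and 1 rose in DKO against WT. Farsb, a subunit of the phenylalanine enzyme, stood at 18.3 and 19.1 FPKM in DKO, 25.5 and 25.7 in Tcf1 KO and 30.6 and 34.2 in WT (-0.76, adjusted p = 0.000579). Its partner Farsa stood at 50.1 and 47.7 in DKO, 41.5 and 40.9 in Tcf1 KO and 44.1 and 46.6 in WT and did not pass against WT (0.11, adjusted p = 0.143). Aars, the alanine enzyme, rose to 19.8 and 17.7 FPKM in DKO, against 13.9 and 12.6 in Tcf1 KO and 13.2 and 13.4 in WT (DKO against WT 0.46, adjusted p = 0.00567). Aimp2, a scaffold of the synthetase complex, fell (-0.69, adjusted p = 0.00124).

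The enzymes that modify elongation factors differed from one another. Dhps, which makes the first step of hypusine on eIF5A, rose to 30.1 and 33.2 FPKM in DKO, against 23.0 and 24.5 in Tcf1 KO and 23.8 and 24.3 in WT (DKO against WT 0.38, adjusted p = 0.00576), while its substrate Eif5a fell. Dph3, needed for diphthamide on eEF2, fell to 4.07 and 4.53 FPKM in DKO, against 6.72 and 8.12 in Tcf1 KO and 9.13 and 8.92 in WT (-0.92, adjusted p = 0.00122). Pabpc4, a poly(A)-binding protein, fell by -0.68 (adjusted p = 0.000831). Larp1, the protein that binds TOP mRNAs and was picked after its values were seen, fell to 34.1 and 35.6 FPKM in DKO, against 43.1 and 42.4 in Tcf1 KO and 44.8 and 45.3 in WT (-0.36, adjusted p = 0.00196). Mknk1, which phosphorylates eIF4E, rose (0.35, adjusted p = 0.00786), though not without WT replicate 2 (0.0518).

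Of 6 genes for eIF2 kinases and the partners of Gcn2, 1 fell in DKO against WT, where 27.8% of all tested genes fell. It was Eif2ak2, the kinase activated by double-stranded RNA. It stood at 17.7 and 14.7 FPKM in DKO, 23.5 and 20.8 in Tcf1 KO and 21.7 and 22.7 in WT (-0.43, adjusted p = 0.0175), which was lost without WT replicate 1 (0.0662) or WT replicate 2 (0.0985). Eif2ak3, the kinase of the endoplasmic reticulum stress response, stood at 13.7 and 13.0 FPKM in DKO, 25.9 and 21.3 in Tcf1 KO and 19.7 and 16.0 in WT. It fell in DKO against Tcf1 KO (-0.77, adjusted p = 0.00708) and narrowly missed in DKO against WT (-0.39, adjusted p = 0.0507), where it passed without Tcf1 KO replicate 1 (0.0448), Tcf1 KO replicate 2 (0.0446) or WT replicate 2 (0.0459). It did not pass in Tcf1 KO against WT (0.38, adjusted p = 0.168).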

How the data were processed

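Total RNA of sorted mature CD8 thymocytes was sequenced by the authors in 6 libraries of 3 genotypes, 2 each, per the labels. The deposited values are FPKM with 2 decimals and 1 column per library. Per the submitters' processing notes, RSEM 1.2.21 and FastQC were used with build mm9. Which aligner, annotation or filters were used is not given in the sources used here. Reads shared by similar genes are divided between them by RSEM. The table used ends at Pcsk5, so later genes are not analysed here, and 13 symbols that a spreadsheet turned into dates were left as they are.

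Genes reaching 1 FPKM in 2 or more of the 6 libraries (6761 of 16383) were fitted as log2(FPKM + 1) in limma 3.58.1 (R 4.3.3), genotype as the only term, variance trend on, 3 residual degrees of freedom, Benjamini-Hochberg adjustment over the 6761 genes and a threshold of 0.05. This scale understates changes of low genes. FPKM gives no counts, so no count test was run. The fit was tested on simulated data with changes of 2-fold or more. The called factors in DKO against WT changed by less, so the simulation does not cover changes of their size.

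Genes were named by rule: up to 12 rises and 12 falls per comparison whose genotypes did not overlap, the 2 most abundant factors of each role, fixed extras, and up to 4 rises and 4 falls of the other translation genes; further factors are named to account for the list. The factors and lists were chosen with earlier results of these data known. Alternatives were a pseudocount of 0.1, no filter, median or quantile scaling, replicate number as a term, no variance trend, each library left out, and Eif3j1 and Eif3j2 summed. RefSeq start sequences (GRCm38.p6) were matched by symbol and GENCODE transcripts were used for shared 50-base stretches.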

Additional observations from a re-analysis of the deposited data

How the results depend on the processing

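In DKO against WT the factors that fell numbered 29 to 38 under the pseudocount, filter, scaling, trend and replicate block alternatives, against 35 as reported. Rises were 1 without the filter, 1 without the variance trend and 4 under median or quantile scaling, against 3, and the median was -0.22 under median scaling. Leaving out 1 library gave 24 to 33 falls, 0 to 3 rises and a median of -0.28 to -0.27. The lone library of a genotype is then assumed to vary like the others. In DKO against Tcf1 KO falls numbered 19 to 27 under the same alternatives, with 2 rises under median scaling and 3 with the replicate block. The median was -0.13 without the filter and -0.12 under median scaling. Leaving out 1 library gave 15 to 22 falls, 1 to 4 rises and a median of -0.18 to -0.13. In Tcf1 KO against WT leave-one-out fits gave 0 to 1 falls and 0 to 1 rises. Over all genes that comparison had 141 calls, 39 without the filter and 12 to 177 without 1 library, DKO against WT had 3345 and 2066 to 3115, and DKO against Tcf1 KO had 2599 and 1583 to 2275. The cause of these shifts was not tested.

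Changes that turned sign were uncalled in the reported fit, and of them Eif3j1 in DKO against WT passed without WT replicate 2. In DKO against WT, Eif2b5 was 0.0373 under median and 0.0129 under quantile scaling, and Eif3j1 ran from -0.0252 to 0.7028 in leave-one-out fits. In Tcf1 KO against WT, median and quantile scaling gave 0.0003 and 0.0 for Eef2, 0.0033 and 0.0036 for Eif2ak2 and 0.0035 and 0.0167 for Eif4ebp1, and quantile scaling 0.0146 for Eif4ebp2 and 0.0 for Gnb2l1. There leave-one-out fits ran from -0.029 to 0.0183 for Eef2, -0.0149 to 0.0777 for Eif1, -0.0862 to 0.0814 for Eif2ak2, -0.1561 to 0.1517 for Eif4ebp1, -0.0587 to 0.0164 for Eif4ebp2, -0.0536 to 0.0011 for Gnb2l1 and -0.0274 to 0.1374 for Lef1. In DKO against Tcf1 KO median scaling gave 0.0426 for Eif6 and 0.0177 for Hnrnpa1, and leave-one-out fits -0.0322 to 0.0166 and -0.1197 to 0.0543.

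Same-numbered libraries share only a number: their deviations correlated across genes at 0.154 (DKO and WT), 0.0454 (Tcf1 KO and WT) and 0.147 (DKO and Tcf1 KO). The replicate block gave 4 rises and 38 falls in DKO against WT, 0 and 1 in Tcf1 KO against WT, and 3 and 27 in DKO against Tcf1 KO. It ended 1 call, that of Eif6 in DKO against WT (0.0547). It added Eif4ebp1 (-0.37, adjusted p = 0.0263), Eif4ebp2 (0.21, 0.0445), Eif3j2 (-0.72, 0.0488) and Eif2ak3 (-0.39, 0.0101) in DKO against WT, and Eif4ebp1 (0.0334), Eif4ebp2 (0.0413) and Eif1 (0.0475) in DKO against Tcf1 KO. FPKM carries no counts, so counting error of low factors is unknown.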
